A study of Mus musculus with 22 samples.

Results

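Liver mRNA of mice that lack *Flcn* in hepatocytes was compared with that of control mice after both had been fed a methionine- and choline-deficient (MCD) diet, which injures the liver. All libraries of these groups were taken, 5 from Cre mice and 6 from liver-*Flcn*-/- mice, or 11 of the 22 libraries of the series, and the test covered the 14062 of 55573 genes whose mean count over the series reached 10. The other 11 libraries, 6 from Cre and 5 from liver-*Flcn*-/- mice on chow, were used to ask where the difference on MCD departs from that on chow. Each library came from a different mouse. All mice were C57BL/6 and carried an Albumin-Cre transgene, which is expressed in hepatocytes. Cre mice had wild-type *Flcn* alleles, and liver-*Flcn*-/- mice had floxed alleles (*Flcn* f/f) from which the recombinase removes a single exon. The MCD diet began at 6 weeks of age and lasted 6 weeks, and the mice were 3 months old. RNA of whole liver also holds the transcripts of stellate, endothelial and immune cells, in which Albumin is not expressed, and of bile duct cells, which share a precursor with hepatocytes and may have been recombined. For genes of any of these cells fewer cells of a type and less RNA per cell cannot be told apart. The hepatocyte transcript *Alb* stood between 46620 and 85320 CPM (counts scaled to library size) in every liver on MCD, and the 33 tested genes of the hepatocyte identity list summed to 94820 to 139400 CPM, with 0 of them at 0 in any library.

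FLCN forms a complex with FNIP1 or FNIP2 at the lysosome and acts on the GTPases RagC and RagD, which bring the transcription factors TFEB and TFE3 to the kinase mTORC1. Phosphorylated TFEB and TFE3 stay in the cytoplasm. In cells without FLCN they enter the nucleus and bind short E-box motifs, known as CLEAR elements, near the start sites of lysosomal and autophagy genes. An MCD diet deprives the liver of what it needs to make phosphatidylcholine and to export triglyceride, and the fat, oxidative damage and cell death that follow draw in macrophages and activate stellate cells, the main collagen-making cells of the liver.

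CPM are counts scaled to a common library size with edgeR's TMM factors. Log2 fold changes compare liver-*Flcn*-/- with Cre mice on MCD, and adjusted p values come from the two-sided quasi-likelihood test of edgeR, corrected across the 14062 genes by Benjamini-Hochberg. A gene is called higher or lower at an adjusted p under 0.05.

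Some libraries stood apart before any comparison. Library Cre MCD 3 carried RNA of skeletal muscle: the 36 tested genes of the muscle list summed to 5482 CPM in it, against 167, 168, 381 and 128 CPM in Cre mice 1, 2, 4 and 5 and 99.9 to 223 CPM in liver-*Flcn*-/- mice. Over the 11 livers the most abundant gene of the list was *Tpm1*, a tropomyosin that smooth muscle and other cells also make, of which Cre mouse 3 held 317 CPM, and the number of the 36 genes at 0 was 0 to 13 in Cre and 0 to 17 in liver-*Flcn*-/- libraries. Of the defining markers, *Acta1* (skeletal actin) had 4.12, 0.215, 599, 29.6 and 0 CPM in Cre mice 1 to 5 and at most 13.8 CPM in liver-*Flcn*-/- mice, while *Myh4* (a fast myosin heavy chain) was at 0 in Cre mice 2 and 5 and had 119 CPM in Cre mouse 3. Liver-*Flcn*-/- mouse 3, with 223 CPM, held the most muscle RNA of its group. The lowest Spearman correlation of Cre mouse 3 with another Cre mouse on MCD was 0.939, and that of any liver-*Flcn*-/- mouse within its group was 0.980 or more. In addition, libraries Cre MCD 1 and FLCN KO MCD 3 held 675 and 224 counts on Y-chromosome genes together with 5411 and 6581 counts of *Xist*, whereas the remaining libraries with *Xist* on MCD held 0 to 38 counts on Y genes. Libraries with *Xist* and libraries with Y counts occurred in both groups. Where leaving out 1 mouse ended the call of a gene, that mouse and the adjusted p without it are given beside the gene.

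**Figure D1:**
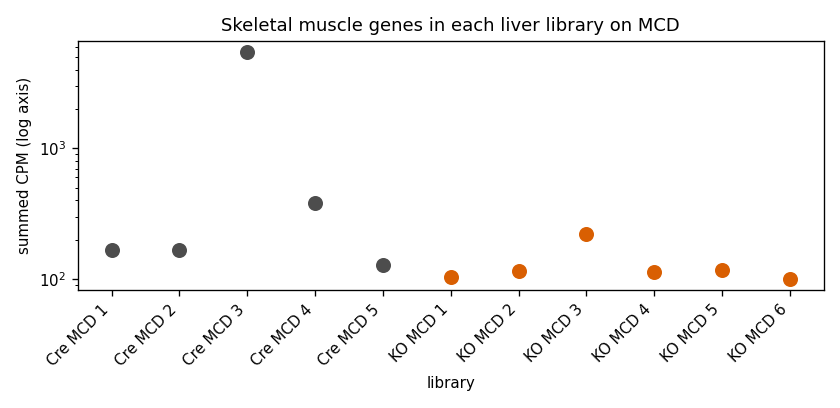
Summed CPM of the skeletal muscle list in each of the 11 livers on MCD, with a log axis, by genotype. Cre mouse 3 stands at 5482 CPM, and no other liver is above 381 CPM.

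On MCD, 1134 genes were higher in liver-*Flcn*-/- mice (8.06% of those tested) and 1199 were lower (8.53%), of which 231 and 441 differed by more than 1 on the log2 scale. The first principal component held 36.2% of the variance over the 11 livers and placed all 5 Cre mice on one side and all 6 liver-*Flcn*-/- mice on the other. For 1211 genes (8.61%) the values of the groups did not overlap. The median log2 fold change over all tested genes was −0.014. Without Cre mouse 3 there were 1191 higher and 1168 lower genes. Of the calls over all mice 964 and 912 remained, while 170 and 287 were lost. Of 121 named genes with a call, 15 lost it without Cre mouse 3 (adjusted p = 0.0534 to 0.776), 13 without Cre mouse 1 (0.0509 to 0.139), 10 without liver-*Flcn*-/- mouse 3 (0.0558 to 0.0896), and 23 without some 1 of the 11 mice. The 10 genes of largest change each way were named only if their call held without Cre mouse 3. For them the outcome without that mouse was fixed in advance. In 90 of the 1199 lower genes over 50% of the CPM summed over the 11 livers lay in Cre mouse 3.

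**Figure D2:**
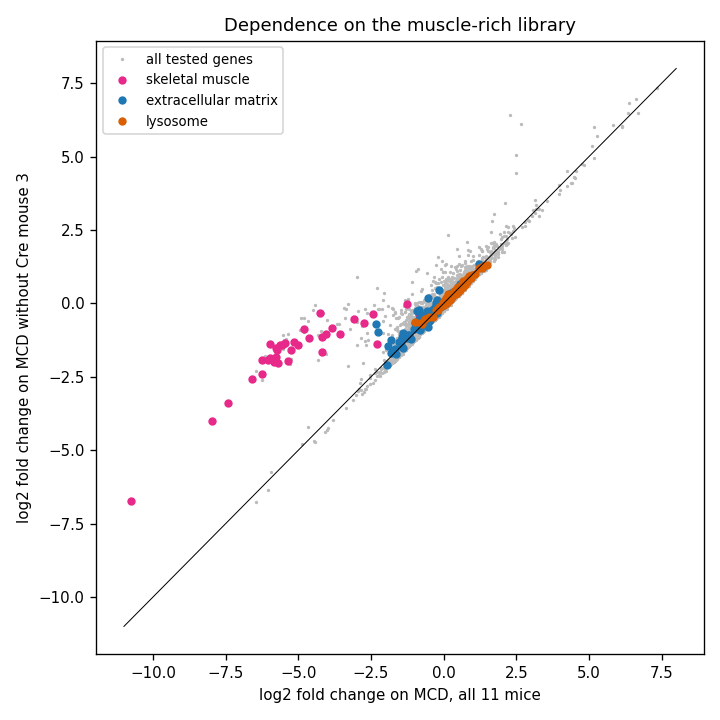
Log2 fold change on MCD over all 11 mice (horizontal) against that without Cre mouse 3 (vertical) for every tested gene, with the skeletal muscle, extracellular matrix and lysosome lists coloured and the line of equality drawn. Muscle genes lie far from the line, 35 of 36 being called lower with Cre mouse 3 and 5 without it, while lysosome genes lie along it, with 46 called higher with and 45 without that mouse.

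The targeted gene itself, *Flcn* (ENSMUSG00000032633, chromosome 11, 59791408 to 59810016, minus strand of GRCm38), gave 31.8, 18.2, 39.9, 32.5 and 23.6 CPM in Cre mice 1 to 5 and 17.6 to 32.6 (median 26.6) in liver-*Flcn*-/- mice on MCD. The groups overlapped. Its log2 fold change was −0.16 (SE 0.17, adjusted p = 0.57; two-sided exact permutation p = 0.55, n = 5 and 6), against −0.63 (adjusted p = 0.025) on chow. Since a single exon is removed and other liver cells keep the gene, counts over the whole gene check the labels only in part.

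Among the partners of FLCN and the factors it controls, 7 of 19 tested genes were higher (36.8%, against 8.06% of all tested genes) and 2 were lower (10.5%, against 8.53%). *Rragd*, which encodes RagD and is itself a target of TFEB and TFE3, had 7.58, 5.82, 9.89, 3.83 and 6.71 CPM in Cre mice and 45.5 to 74.3 (median 63.9) in liver-*Flcn*-/- mice. The lowest liver-*Flcn*-/- mouse thus lay far above the highest Cre mouse, with a log2 fold change of 3.18 (SE 0.24, adjusted p = 2.5e-08). *Rragc*, for RagC, was higher as well (0.60, adjusted p = 1.6e-05) without overlap. The partners of FLCN rose too: *Fnip1* by 0.58 (adjusted p = 0.0095) without overlap and *Fnip2* by 1.33 (adjusted p = 0.0017), where Cre mouse 3 with 39.2 CPM lay inside the liver-*Flcn*-/- range and the other Cre mice, at 9.61 to 17.1 CPM, lay below it. The factors themselves did not rise as mRNA. *Tfe3* fell by 0.29 on the log2 scale (adjusted p = 0.0061) and *Mitf* fell by 0.48 (adjusted p = 0.048, and 0.0516 to 0.13 without any 1 of Cre mice 1, 2, 3 and 5 and liver-*Flcn*-/- mice 1, 2, 5 and 6). *Tfeb* had a log2 fold change of −0.13 (adjusted p = 0.58). *Lamtor1*, a subunit of the Ragulator scaffold that holds the Rag GTPases on the lysosome, was higher by 0.35 (adjusted p = 0.02, and 0.0509 and 0.0534 without Cre mouse 1 or 3).

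Of the 4 known targets in that list 2 were higher on MCD, among them *Mcoln1* (0.79, adjusted p = 1.6e-06). *Gpnmb* and *Sqstm1* did not pass on MCD. *Gpnmb*, a glycoprotein of lysosomes and macrophages, had 107, 47.8, 262, 152 and 73.8 CPM in Cre mice and 55.2 to 260.3 (median 126) in liver-*Flcn*-/- mice, with overlap and a log2 fold change of 0.09 (adjusted p = 0.91). On chow the same difference was 3.04 (adjusted p = 0.0082), and the interaction of genotype and diet, the difference on MCD minus that on chow, was −2.95 (adjusted p = 0.029). That call was lost with the 5 chow libraries left out that have a lower uniquely mapped share: 0 of the 19 genes of the list then passed downward. *Sqstm1*, the gene of the autophagy receptor p62, ranged from 548 to 1193 CPM in Cre mice and from 744 to 947 in liver-*Flcn*-/- mice (log2 fold change of −0.03, adjusted p = 0.9).

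Many lysosomal genes were higher in liver-*Flcn*-/- mice on MCD. Of 87 tested members 46 were higher (52.9%, against 8.06% of all tested genes), 2 were lower, and the median log2 fold change was 0.419. For 38 members (43.7%, against 8.61%) the groups did not overlap. The count of higher members varied from 45 to 47 when any 1 library was left out, and that of lower members reached 4 without Cre mouse 2 and 5 without liver-*Flcn*-/- mouse 2. By role, 22 of 48 hydrolases, 11 of 22 membrane proteins and 13 of 17 subunits of the V-ATPase, the proton pump that acidifies the lysosome, were higher. *Ctsa*, the carboxypeptidase cathepsin A, had 176, 194, 158, 205 and 214 CPM in Cre mice and 391 to 548 (median 485) in liver-*Flcn*-/- mice. All liver-*Flcn*-/- mice lay above all Cre mice, by a log2 fold change of 1.35 (SE 0.12, adjusted p = 2.5e-07). Further hydrolases with the same separation were *Dpp7*, a dipeptidyl peptidase (1.30, adjusted p = 6.1e-06), *Hexa*, a hexosaminidase subunit (1.23, adjusted p = 1.6e-06), *Ctsz* (1.09, adjusted p = 1.4e-05) and *Ctsf* (0.68, adjusted p = 0.0011), the last pair being cysteine cathepsins.

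Channels, exporters and pump subunits were among the higher members. *Mcoln1*, the calcium channel TRPML1, had 25.1, 24.1, 29.2, 26.7 and 25.9 CPM in Cre mice and 43.2 to 49.3 (median 44.6) in liver-*Flcn*-/- mice, with no overlap (log2 fold change 0.79, adjusted p = 1.6e-06). *Ctns*, the cystine exporter, rose by 0.87 (adjusted p = 3.8e-06) and *Cln3*, mutated in a juvenile neuronal storage disease, by 0.84 (adjusted p = 9.7e-06). Among the pump subunits *Atp6v1d* was higher by 0.74 (adjusted p = 9.9e-06) and *Atp6v0b* by 0.72 (adjusted p = 0.00039). The 2 lower members, *Ctss* (−0.79, adjusted p = 0.015) and *Cd68* (−0.73, adjusted p = 0.0061), are a cathepsin and a membrane protein made mostly by macrophages. On chow 31 members were higher and 1 was lower, with a median of 0.300 (5.52% and 3.10% of all tested genes were higher and lower on chow). The interaction passed for 6 of the 87, 2 upward and 4 downward (3.29% of all tested genes passed upward and 5.54% downward). With the 5 chow libraries of lower uniquely mapped share left out, 2 passed upward and 0 downward.

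The start sites of 4 genes that were higher on MCD are shown because they hold the E-box TCACGTG or its reverse complement CACGTGA, the core of the CLEAR element. They are the 4 with the largest log2 fold change among the lysosome, autophagy and FLCN lists and the 10 most raised genes whose RefSeq window held the motif. Each runs 5′ to 3′ from 250 bases before the start to 15 bases after it (265 bases, RefSeq on GRCm38.p6), with the motif in capitals on either strand and a palindromic TCACGTGA counted once. *Ogdhl*, the gene of an oxoglutarate dehydrogenase-like protein, lies on the plus strand at chr14:32321769-32322033 and holds 1 match, beginning 6 bases before the start. *Ctsa* lies on the plus strand at chr2:164833523-164833787 and holds 2, the first beginning 13 bases before the start. *Dpp7* lies on the minus strand at chr2:25356318-25356582 with 1 match, and *Cln3* on the minus strand at chr7:126583222-126583486 with 2.
Ogdhl: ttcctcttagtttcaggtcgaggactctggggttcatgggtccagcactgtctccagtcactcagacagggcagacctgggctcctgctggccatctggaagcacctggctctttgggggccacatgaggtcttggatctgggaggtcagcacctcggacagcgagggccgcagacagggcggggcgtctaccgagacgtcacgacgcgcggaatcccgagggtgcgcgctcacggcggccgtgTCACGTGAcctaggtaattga
Ctsa: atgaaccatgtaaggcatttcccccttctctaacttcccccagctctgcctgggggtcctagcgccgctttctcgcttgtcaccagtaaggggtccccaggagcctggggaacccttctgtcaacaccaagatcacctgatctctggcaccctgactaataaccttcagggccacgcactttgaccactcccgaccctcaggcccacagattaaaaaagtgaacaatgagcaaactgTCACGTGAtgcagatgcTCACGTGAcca
Dpp7: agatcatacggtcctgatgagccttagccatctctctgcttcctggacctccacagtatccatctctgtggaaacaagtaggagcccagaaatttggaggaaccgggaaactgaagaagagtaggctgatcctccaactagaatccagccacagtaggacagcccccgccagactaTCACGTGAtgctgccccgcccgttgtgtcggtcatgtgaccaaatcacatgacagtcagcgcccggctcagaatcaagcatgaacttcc
Cln3: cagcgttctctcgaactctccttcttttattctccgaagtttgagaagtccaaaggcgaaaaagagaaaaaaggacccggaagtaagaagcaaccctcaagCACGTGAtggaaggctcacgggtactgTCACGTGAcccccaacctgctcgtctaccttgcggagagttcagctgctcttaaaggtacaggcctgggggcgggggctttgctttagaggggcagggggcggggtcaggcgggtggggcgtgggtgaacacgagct
Of the 32851 windows of 300 bases in that RefSeq table, 3.77% held TCACGTG on either strand, and of the 10547 tested genes with a window, 6.95% held it. The other tested genes, of 14062 in all, had no window. Among genes with a window, the motif was held by 12.7% of those higher on MCD and 4.02% of those lower. It was held by 11 of 35 higher lysosome genes (31.4%) and by 8 of 30 lysosome genes that were not called (26.7%). Of the higher respiratory chain genes 2 of 38 held it. Whether these shares differ was not tested, since many tested genes had no window. A match is a string of letters and not evidence of binding. *Ogdhl* had 0.329, 0.215, 0.234, 0.340 and 0.205 CPM in Cre mice, 4 to 8 counts per library, and 3.86 to 8.08 (median 6.68) in liver-*Flcn*-/- mice.

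Few autophagy genes were called. Of 55 tested members 8 were higher (14.6%, against 8.06% of all tested genes), 1 was lower, and the median log2 fold change was 0.061. Of the 21 genes of initiation and nucleation 0 were called by edgeR, limma-voom or DESeq2, and at an unadjusted p under 0.05 in edgeR 1 was higher and 2 were lower (edgeR called 1 lower without Cre mouse 3), while 5 of 16 genes of the conjugation machinery were higher. *Gabarapl1*, a protein of the ATG8 family that coats autophagosomes, had 249, 261, 227, 301 and 238 CPM in Cre mice and 349.9 to 573 (median 484) in liver-*Flcn*-/- mice without overlap (log2 fold change 0.91, adjusted p = 0.00013). *Atg7*, the enzyme that activates ATG8 proteins, was higher by 0.71 (adjusted p = 0.00059). *Depp1*, a FOXO-induced regulator of autophagy, was higher by 1.47 (adjusted p = 0.0048). *Map1lc3a*, another ATG8 protein, was the lower member (−0.45, adjusted p = 0.043), a call that was lost (adjusted p = 0.0631 to 0.118) without any 1 of Cre mice 1, 2, 4 and 5 and liver-*Flcn*-/- mice 1, 4, 5 and 6.

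Most of the genes with the largest rise on MCD had low levels in Cre mice. Genes were ranked if they had a mean of at least 1 CPM, no overlap and a call that held without Cre mouse 3. Symbols of the form Gm plus digits or ending in Rik were left out. The 10 with the largest log2 fold change were *Il12rb2*, *D7Ertd443e*, *Cyp46a1*, *Adra2a*, *Mmp27*, *Kcnk3*, *Clec2h*, *Wfdc2*, *Ogdhl* and *Bex2*. Their fitted log2 fold changes were 4.49 to 6.61. For *Il12rb2*, *D7Ertd443e* and *Adra2a* the Cre libraries held 0 to 6 counts each, so that the fitted fold depends on the prior count. *Cyp46a1*, a cholesterol hydroxylase known from neurons, had 1.24, 0.517, 1.69, 1.36 and 1.23 CPM in Cre mice and 54.7 to 146 (median 97.3) in liver-*Flcn*-/- mice. *Bex2*, a small protein of neural and endocrine cells, had 4.08, 6.94, 2.86, 3.88 and 12.3 and 88.8 to 175 (median 141) CPM. *Mmp27*, a matrix metalloproteinase, had 1.32, 1.12, 0.891, 1.31 and 0.922 and 24.0 to 141 (median 74.5) CPM. In *Cyp46a1*, *Bex2* and *Mmp27* the lowest liver-*Flcn*-/- mouse lay several times above the highest Cre mouse. Levels varied widely within the liver-*Flcn*-/- group for *Il12rb2*, an interleukin-12 receptor chain, which ranged from 0.537 to 37.8 CPM, and for the potassium channel *Kcnk3*, from 7.18 to 40.9 CPM. All but *Clec2h* were also higher on chow; its difference there was 1.83 (adjusted p = 0.054), and its interaction was 3.44 (adjusted p = 0.023).

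Lowered genes were ranked in the same way, with a mean of at least 1 CPM, no overlap and a call without Cre mouse 3. The 10 most lowered of these were *Akr1c18*, *Mep1a*, *Sprr1a*, *Trdc*, *Rian*, *Bcl2l14*, *Ak7*, *Cyp2d41-ps*, *Csn3* and *Meg3*. Some muscle genes with overlap, such as *Myh4* (−10.7), fell further. *Akr1c18*, a steroid dehydrogenase, had 16.8, 14.0, 5.81, 15.2 and 56.9 CPM in Cre mice and 0.394 to 2.58 (median 0.747) in liver-*Flcn*-/- mice (log2 fold change of −4.46, adjusted p = 4.1e-06). *Sprr1a*, a small proline-rich protein induced in injured epithelium, had 54.6, 36.4, 14.1, 46.8 and 13.4 and 0.649 to 4.78 (median 2.21) CPM. Neither gene overlapped between the groups, although *Akr1c18* in Cre mouse 5 stood far above the other Cre mice. *Meg3* and *Rian*, noncoding RNAs of 1 imprinted cluster, fell together, but part of that fall came from Cre mouse 3, which had 63.4 and 18.6 CPM where the other Cre mice had 9.70 to 24.3 and 1.79 to 3.75. Without it their log2 fold changes were −2.03 (adjusted p = 0.006) and −2.14 (adjusted p = 0.0039). *Ak7*, an adenylate kinase, and the pseudogene *Cyp2d41-ps*, whose reads may be shared with other Cyp2d genes, had the most even levels among Cre mice, 4.17 to 5.72 and 6.55 to 9.07 CPM. Of the 10, only *Ak7* was also lower on chow (−3.18, adjusted p = 0.0017).

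**Figure D3:**
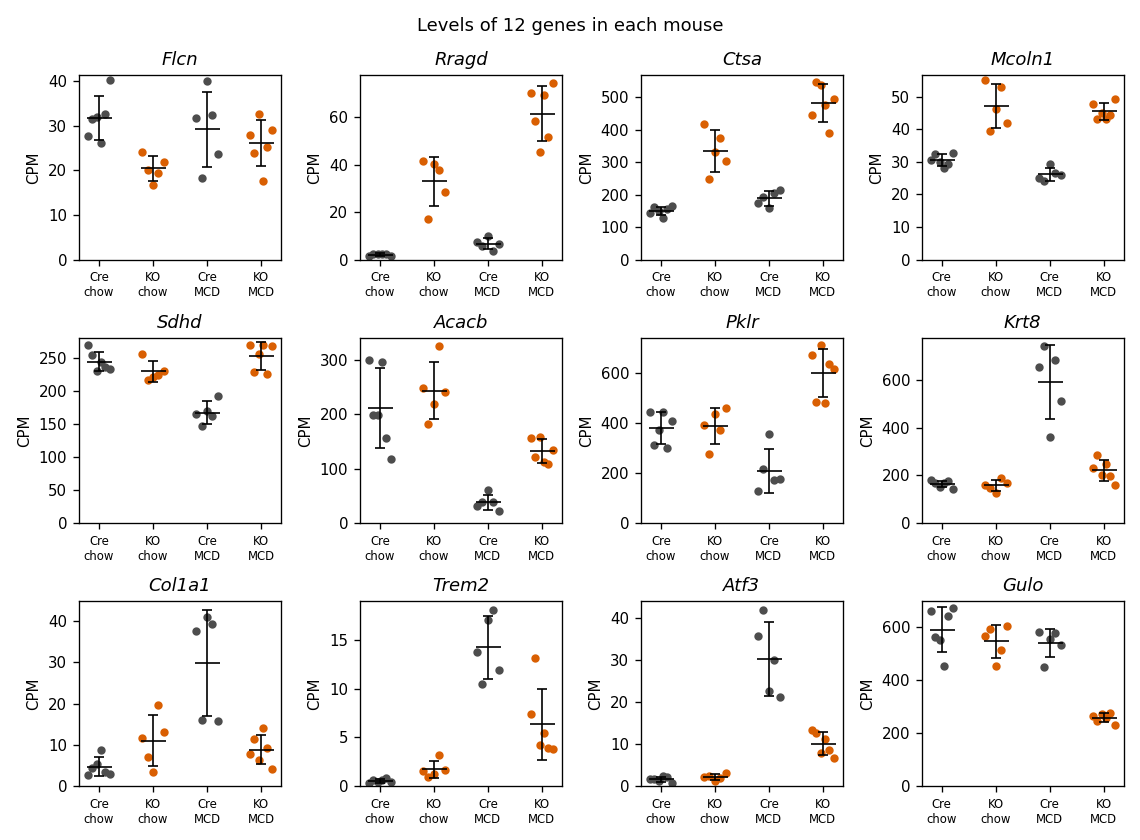
CPM of 12 genes in every mouse of the 4 groups (Cre and liver-*Flcn*-/-, chow and MCD), 1 point per mouse, with the mean and SD of each group. On MCD, *Rragd*, *Ctsa*, *Mcoln1*, *Sdhd*, *Acacb* and *Pklr* lie higher in all liver-*Flcn*-/- mice and *Krt8*, *Col1a1*, *Atf3* and *Gulo* lower in all, while *Flcn* and *Trem2* overlap between the genotypes.

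Many genes of the mitochondrial respiratory chain were higher on MCD, by small steps. Of 82 tested subunits 50 were higher (61.0%, against 8.06% of all tested genes) and 2 were lower, 78 had a positive log2 fold change, and the median was 0.345. The groups did not overlap for 32 subunits (39.0%, against 8.61%). *Sdhd*, a subunit of complex II, had 165, 147, 170.5, 162 and 193 CPM in Cre mice and 226 to 271 (median 262) in liver-*Flcn*-/- mice, a separation without overlap (log2 fold change 0.60, SE 0.08, adjusted p = 2.6e-05). *Atp5a1*, a subunit of ATP synthase, had 877, 988, 978, 858 and 902 and 1248 to 1410 (median 1374) CPM, again without overlap (log2 fold change 0.55, adjusted p = 2.7e-05). The lower pair, *Cox6a2* and *Cox8b*, are the muscle forms of cytochrome c oxidase subunits, and Cre mouse 3 held 28.8 and 11.1 CPM of them where no other liver exceeded 3.01 CPM. The call of *Cox8b* was lost (adjusted p = 0.053 to 0.681) without Cre mouse 3 or any 1 of liver-*Flcn*-/- mice 1, 4, 5 and 6. Without Cre mouse 3 44 subunits were higher. On chow 4 subunits were lower and 0 were higher in edgeR (1 at an unadjusted p under 0.05 and 1 in DESeq2), with a median of −0.101, and the interaction passed for 48 of 82, of which 47 were positive (3.29% of all tested genes passed upward). With the 5 chow libraries left out that have a lower uniquely mapped share in the study's library statistics, it passed for 32, all positive. *Ppargc1a*, the coactivator PGC-1α of mitochondrial biogenesis, was higher by 1.10 (adjusted p = 0.00096), with Cre mouse 3 at 31.3 CPM as the 1 overlapping value. Cytosolic ribosomal proteins, 84 tested genes, held 2 lower members on MCD (2.38%, against 8.53%) and 30 on chow (against 3.10%), where the median was −0.337. The 2 were *Rpl3l* (−5.27, adjusted p = 0.0046), the muscle form, of which Cre mouse 3 held 12.5 CPM (adjusted p = 0.143 without it), and *Rplp0* (−0.40, adjusted p = 0.037, and 0.0547 to 0.136 without any 1 of Cre mice 2 and 5 and liver-*Flcn*-/- mice 1, 3, 4, 5 and 6). Without Cre mouse 3, 4 ribosomal protein genes were lower.

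Genes of the lipogenesis list were higher in a few cases rather than as a group. Of 27 lipogenic genes 3 were higher (11.1%, against 8.06% of all tested genes), with a median of −0.169. *Acacb*, the acetyl-CoA carboxylase at the mitochondrial surface, had 31.1, 38.1, 60.6, 38.9 and 21.5 CPM in Cre mice and 109 to 159 (median 128) in liver-*Flcn*-/- mice (log2 fold change of 1.80, adjusted p = 3.6e-05). *Pklr*, the liver pyruvate kinase, had 126, 214, 356, 174 and 176 and 479 to 711 (median 628) CPM (log2 fold change 1.52, adjusted p = 3.2e-05). Both genes separated the groups fully. Neither differed on chow at this threshold (0.20 and 0.03, adjusted p = 0.65 and 0.96), and both interactions passed (1.59 and 1.49, adjusted p = 0.0063 and 0.0033). Of 53 genes of lipid droplets, uptake and lipoproteins 4 were higher (7.55%, against 8.06%) and 8 lower (15.1%, against 8.53%), with a median of −0.033. Of the higher ones, *Plin4*, a lipid droplet coat protein, and *Hsd17b13*, a hepatocyte droplet enzyme, were higher by 2.39 and 0.94 (adjusted p = 1.9e-06 and 6.9e-06). They departed from chow in opposite ways, since the chow difference of *Plin4* was the larger (4.85) and that of *Hsd17b13* was 0.07 (adjusted p = 0.75). Of 45 genes of fatty acid oxidation and PPARα targets 7 were higher (15.6%, against 8.06%) and 2 lower (4.44%, against 8.53%), with 1 to 3 lower when any 1 library was left out. *Fgf21*, a fasting hormone of the liver, was among the lower ones (−1.59, adjusted p = 0.013, and 0.0773 without Cre mouse 2), with overlap.

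Some genes of cholesterol synthesis were lower. Of 25 tested genes 11 were lower (44.0%, against 8.53% of all tested genes), and the median was −0.544. The count fell to 6 or 7 without Cre mouse 1, 4 or 5 or liver-*Flcn*-/- mouse 1, and was 13 without Cre mouse 3. *Stard4*, a carrier protein that moves sterols between membranes, had 77.6, 49.6, 104, 82.9 and 85.8 CPM in Cre mice and 33.1 to 60.7 (median 47.7) in liver-*Flcn*-/- mice, with Cre mouse 2 as the 1 Cre value inside the liver-*Flcn*-/- range (log2 fold change −0.77, adjusted p = 0.0049). *Mvd*, a decarboxylase of the mevalonate pathway, had 17.5, 17.7, 10.8, 21.6 and 17.6 and 4.97 to 11.2 (median 9.35) CPM, with Cre mouse 3 inside the liver-*Flcn*-/- range (log2 fold change −0.93, adjusted p = 0.028), a call that was lost without any 1 of Cre mice 1 and 4 and liver-*Flcn*-/- mice 1 and 6 (adjusted p = 0.0524 to 0.0775). On chow their log2 fold changes were −0.39 and −0.89 (adjusted p = 0.19 and 0.053).

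Genes of the extracellular matrix were lower in part in liver-*Flcn*-/- mice on MCD. Of 93 tested members 38 were lower (40.9%, against 8.53%), 3 were higher, 82 had a negative log2 fold change, and the median was −0.580. For 23 of them (24.7%, against 8.61%) the groups did not overlap. The count of lower matrix genes changed with the mice taken. Without Cre mouse 3, 23 were lower and the median was −0.484. Without Cre mouse 1 or liver-*Flcn*-/- mouse 3, 29 and 30 were lower. With the mean level of muscle genes as a covariate 17 were lower. That covariate is highest in Cre mouse 3, so it is not independent of leaving this mouse out. The part of the muscle RNA in the difference was not tested. *Col1a1*, a chain of type I collagen, had 37.6, 16.0, 41.0, 39.2 and 15.8 CPM in Cre mice and 4.15 to 14.0 (median 8.58) in liver-*Flcn*-/- mice. The groups did not overlap, though Cre mice 2 and 5 lay close to the highest liver-*Flcn*-/- mouse (log2 fold change −1.76, adjusted p = 0.0031; without Cre mouse 3 −1.62, adjusted p = 0.0079). *Col3a1*, for type III collagen, was lower (−1.55, adjusted p = 0.0049), as was *Ltbp2*, which is a matrix protein of the latent TGF-β binding family (−1.67, adjusted p = 0.0007). Of the proteases and inhibitors, *Timp1*, an inhibitor of metalloproteinases, was lower (−1.45, adjusted p = 0.0089), as was the gelatinase *Mmp2* (−0.76, adjusted p = 0.028, and 0.0522 to 0.0716 without any 1 of Cre mice 1, 3 and 4 and liver-*Flcn*-/- mice 3, 5 and 6). The 3 higher members were *Pcolce2*, an enhancer of collagen processing (1.34, adjusted p = 0.00038), and the basement membrane collagens *Col18a1* (0.51, adjusted p = 0.0019) and *Col4a3* (1.22, adjusted p = 0.042), the latter at under 1 CPM in every mouse on MCD and not called (adjusted p = 0.0511 to 0.112) without any 1 of Cre mice 1, 2, 4 and 5 and liver-*Flcn*-/- mice 1, 3, 4 and 5.

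Markers of activated stellate cells were lower in part. Of 15 activation markers 9 were lower (60.0%, against 8.53% of all tested genes), with a median of −1.037, and of 15 quiescence markers 3 were lower, with a median of −0.226. Without Cre mouse 3 these counts were 5 and 3, and with the muscle covariate 5 of all 30 were lower. Whether the 2 sets of markers differ was not tested. *Tagln*, a contractile protein of smooth muscle cells and myofibroblasts, had 20.1, 19.9, 27.2, 22.6 and 14.7 CPM in Cre mice and 3.44 to 8.95 (median 7.65) in liver-*Flcn*-/- mice, without overlap (log2 fold change −1.59, adjusted p = 0.0017; −1.47 without Cre mouse 3). *Acta2*, smooth muscle actin, had 5.06, 6.12, 15.8, 7.71 and 4.56 and 0.954 to 3.68 (median 1.69) CPM, with Cre mouse 3 highest (log2 fold change −2.07, adjusted p = 0.011; −1.65 and 0.038 without it). *Des*, which both stellate cells and skeletal muscle make, was called only with Cre mouse 3 in the comparison, where it had 146 CPM (−2.73, adjusted p = 0.0048; −0.68 and 0.074 without it). *Lrat*, the vitamin A enzyme that defines quiescent stellate cells, had 27.0, 21.1, 33.2, 21.6 and 27.4 CPM in Cre mice and 17.5 to 29.7 (median 26.7) in liver-*Flcn*-/- mice, which overlapped (log2 fold change −0.02, adjusted p = 0.97). The 30 tested genes of the list summed to 1846 to 2007 CPM in Cre mice and 1123 to 1834 in liver-*Flcn*-/- mice, the most abundant gene being *Plin2*, a droplet protein that hepatocytes also make, and 0 genes were at 0 in any library. Without *Plin2* the sums were 656.5 to 1189 CPM in Cre mice and 581.1 to 730.5 in liver-*Flcn*-/- mice, which overlapped. Of 37 genes of the TGF-β pathway 6 were lower (16.2%, against 8.53%) and 2 higher (5.41%, against 8.06%). On chow 10 matrix genes were higher in liver-*Flcn*-/- mice (against 5.52% of all tested genes) and 0 were lower in edgeR (1 at an unadjusted p under 0.05, and 0 in limma-voom and DESeq2), with a median of 0.374, and the interaction passed for 41 of the 93 genes, 39 of them negative (5.54% of all tested genes passed downward). It passed for 33, all negative, with the 5 chow libraries of lower uniquely mapped share left out.

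**Figure D4:**
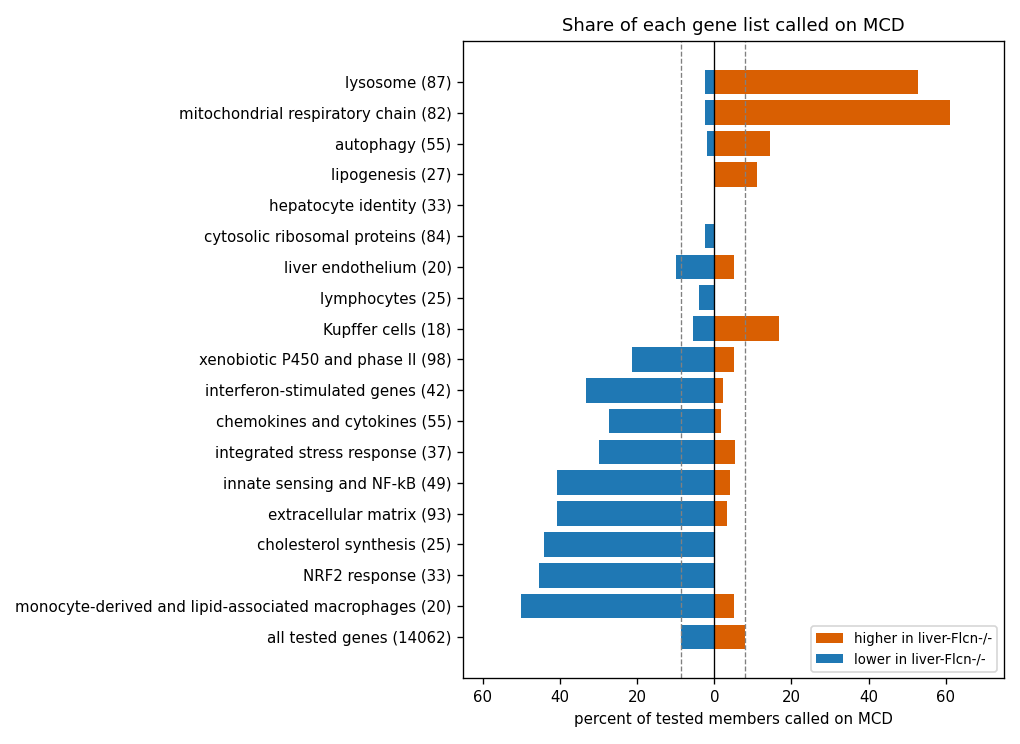
Percent of the tested members of each gene list called higher (bars to the right) or lower (to the left) in liver-*Flcn*-/- mice on MCD, with the number tested in brackets and dashed lines at the percent over all tested genes (8.06 and 8.53). The respiratory chain and lysosome lists reach 61.0 and 52.9% on the right. Of the lists drawn, monocyte-derived macrophages, NRF2 response, cholesterol synthesis and extracellular matrix lie farthest to the left.

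Genes of recruited macrophages were lower in part. Of 20 genes of monocyte-derived and lipid-associated macrophages 10 were lower (against 8.53% of all tested genes) and 1 was higher, with a median of −0.793, and the count was 8 to 10 when any 1 library was left out. *Trem2*, a lipid receptor of these cells, had 13.8, 10.5, 17.0, 18.1 and 11.9 CPM in Cre mice and 3.77 to 13.2 (median 4.88) in liver-*Flcn*-/- mice. A single liver-*Flcn*-/- mouse reached the Cre range (log2 fold change −1.16, adjusted p = 0.0098). *Mmp12*, macrophage elastase, had 123, 56.0, 148, 147 and 77.6 and 9.19 to 56.2 (median 28.2) CPM (log2 fold change −1.80, adjusted p = 0.001). *Lgals3*, galectin-3, was lower as well (−1.20, adjusted p = 0.007). The higher member, *Cd63* (1.50, adjusted p = 0.0016), is a lysosomal membrane protein also counted in the lysosome list. The summed level of the 20 genes was 1181 to 1778 CPM in Cre mice and 1277 to 1789 in liver-*Flcn*-/- mice. Its most abundant gene, *Cd36*, is also made by hepatocytes, and without it the sums were 816 to 1339 and 753 to 1210 CPM, which still overlapped; 0 genes were at 0 in any library.

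Of 18 Kupffer cell genes 3 were higher (16.7%, against 8.06% of all tested genes) and 1 was lower (5.56%, against 8.53%), with a median of −0.192. Without Cre mouse 3, 2 were higher and 2 lower, with a median of −0.353, and without liver-*Flcn*-/- mouse 2, 5 were lower. Whether they differ from the genes of recruited macrophages was not tested. *Timd4*, a receptor of long-lived Kupffer cells, had 4.94, 5.00, 1.88, 6.74 and 6.35 CPM in Cre mice and 7.84 to 12.4 (median 8.86) in liver-*Flcn*-/- mice, without overlap (log2 fold change 0.94, adjusted p = 0.01). *Slc40a1*, the iron exporter ferroportin, rose by 0.98 (adjusted p = 0.00014), and the haemoglobin scavenger receptor *Cd163* by 0.89 (adjusted p = 0.029, and 0.0694 to 0.0869 without any 1 of Cre mice 1, 3 and 4 and liver-*Flcn*-/- mice 1 and 6). The lower member was the Fc receptor *Fcgr4* (−0.63, adjusted p = 0.032), a call that was lost without any 1 of Cre mice 1 and 4 and liver-*Flcn*-/- mice 3, 4, 5 and 6 (adjusted p = 0.0506 to 0.0966). *Clec4f*, which defines Kupffer cells, had 95.1, 96.3, 35.6, 124 and 105 CPM in Cre mice and 80.3 to 149.8 (median 93.8) in liver-*Flcn*-/- mice (log2 fold change of 0.19, adjusted p = 0.63), and its lowest value was that of Cre mouse 3. The list summed to 709 to 1254 CPM in Cre mice and 887 to 1317 in liver-*Flcn*-/- mice.

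Chemokines, innate sensors and interferon-stimulated genes were lower in part. Of 55 chemokine, cytokine and receptor genes 15 were lower (27.3%, against 8.53% of all tested genes) and 1, *Mif*, was higher (0.61, adjusted p = 0.014). *Cxcl1*, which attracts neutrophils, had 24.6, 25.0, 22.0, 13 and 22.5 CPM in Cre mice and 3.97 to 9.87 (median 5.81) in liver-*Flcn*-/- mice, without overlap (log2 fold change −1.67, adjusted p = 0.011). *Cxcl10*, which attracts T cells, was lower (−1.35, adjusted p = 0.0051), as was *Ccl2*, which attracts monocytes (−0.99, adjusted p = 0.042, and 0.0719 to 0.139 without any 1 of Cre mice 1, 4 and 5 and liver-*Flcn*-/- mice 3, 5 and 6). *Ccl5* had a log2 fold change of −0.60 (adjusted p = 0.14). The receptors *Ccr1* and *C5ar1* of myeloid cells were lower without overlap (−1.49 and −1.32, adjusted p = 0.013 and 0.0032). Of 49 genes of innate sensing and NF-κB 20 were lower (40.8%, against 8.53%), and 2 were higher: *Tlr5*, the flagellin receptor (0.85, adjusted p = 0.0064), and *Sod2*, the mitochondrial superoxide dismutase (0.31, adjusted p = 0.0024). Of 42 interferon-stimulated genes 14 were lower (33.3%, against 8.53%) and 1, *Usp18*, was higher (0.50, adjusted p = 0.028), a call lost without any 1 of Cre mice 3 and 4 and liver-*Flcn*-/- mice 1 and 2 (adjusted p = 0.0554 to 0.078). *Oasl1*, an oligoadenylate synthetase-like protein, had 51.9, 68.8, 26.9, 43.7 and 46.1 CPM in Cre mice and 9.21 to 21.5 (median 18.1) in liver-*Flcn*-/- mice, without overlap (log2 fold change −1.51, adjusted p = 0.00021). On chow 9 interferon-stimulated genes were higher (against 5.52% of all tested genes), and the interaction passed for 23 of the 42, all negative (against 5.54% downward), or for 12 with the 5 chow libraries of lower uniquely mapped share left out.

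Of 25 lymphocyte genes 1 was lower (4.0%, against 8.53% of all tested genes), *Ighm*, the heavy chain of IgM, and it rested on Cre mouse 3 with 72.4 CPM (−2.13, adjusted p = 0.029; −0.20 and 0.78 without it, and 0.0534 to 0.0623 without any 1 of liver-*Flcn*-/- mice 3, 4 and 6). That library held 180 CPM of lymphocyte genes in all, against 26.5 to 52.0 CPM in the other livers. Of the same list 3 were lower without Cre mouse 2, and 2 without Cre mouse 5 or liver-*Flcn*-/- mouse 1 or 2, and 1 was higher without Cre mouse 3. *Trdc*, the constant region of the T cell receptor delta chain, is a further lymphocyte gene that the list does not hold. It is 1 of the 10 genes named above as the most lowered without overlap. It had 3.83, 4.22, 1.17, 3.15 and 2.20 CPM in Cre mice and 0 to 0.493 (median 0.291) in liver-*Flcn*-/- mice, without overlap (log2 fold change −3.36, adjusted p = 0.00019), and −3.55 without Cre mouse 3. Of 8 tested neutrophil genes 2 were lower (25.0%, against 8.53%), namely *Csf3r*, the G-CSF receptor (−0.84, adjusted p = 0.015), and *Lcn2*. *Lcn2* is also secreted by injured hepatocytes and had 572, 842, 289.5, 532 and 561 CPM in Cre mice and 49.1 to 148 (median 85.8) in liver-*Flcn*-/- mice, without overlap (log2 fold change −2.64, adjusted p = 0.0051). Without *Lcn2* the neutrophil genes summed to 18.5 to 64.7 CPM in Cre mice and 12.3 to 31.6 in liver-*Flcn*-/- mice, which overlapped. Of 20 endothelial genes 1 was higher and 2 were lower (against 8.06% and 8.53%). *Stab2*, a sinusoidal scavenger receptor, was higher (0.62, adjusted p = 0.0012), and *Stab1*, its homologue, and *Wnt2*, a ligand of pericentral endothelium, were lower (−0.57 and −0.90, adjusted p = 0.0049 and 0.0054). Of 24 genes of antigen presentation 7 were lower (29.2%, against 8.53%), but 3 or 4 without any 1 of 6 mice.

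Among genes that hepatocytes make, those of hepatocyte identity gave no calls while the keratins of injured hepatocytes were lower. Of 33 hepatocyte identity genes 0 were called in edgeR with all mice, with a median of 0.006. At an unadjusted p under 0.05, 2 of them were higher and 4 lower, DESeq2 called 1 lower and limma-voom 0, and edgeR called 3 higher without Cre mouse 3. *Krt8*, the keratin that hepatocytes raise when injured, had 657, 745, 359.7, 685 and 512 CPM in Cre mice and 159 to 287 (median 217) in liver-*Flcn*-/- mice, without overlap (log2 fold change −1.42, SE 0.16, adjusted p = 3.8e-06). Its partner *Krt18* fell by 1.04 on the log2 scale (adjusted p = 5.8e-05). *Krt19*, a keratin of bile ducts, had a log2 fold change of −0.86 (adjusted p = 0.36), and of the 18 genes of the bile duct and keratin list, with a median of −0.428, 4 were higher (22.2%, against 8.06%), among them *Sox9* (0.71, adjusted p = 0.044, and 0.0555 to 0.107 without any 1 of the 5 Cre mice and liver-*Flcn*-/- mice 2, 3 and 6), *Cftr* (2.01, adjusted p = 0.02) and *Anxa4* (0.29, adjusted p = 0.01).

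Some genes of stress programmes were lower in liver-*Flcn*-/- mice. Of 33 genes of the NRF2 antioxidant response 15 were lower (45.5%, against 8.53%), with a median of −0.401 and 12 to 15 lower when any 1 library was left out. Of 37 genes of the integrated stress response 11 were lower (29.7%, against 8.53%) and 2 higher (5.41%, against 8.06%), and 17 were lower without Cre mouse 3 or with the muscle covariate. *Atf3*, a transcription factor induced by stress, had 35.6, 41.9, 22.6, 30.0 and 21.1 CPM in Cre mice and 6.78 to 13.3 (median 9.91) in liver-*Flcn*-/- mice, without overlap (log2 fold change −1.58, adjusted p = 9.6e-05). *Slc7a11*, the cystine importer, was lower (−1.77, adjusted p = 0.016), as was *Aldh1l2*, a mitochondrial folate enzyme (−1.46, adjusted p = 0.0026). The higher members were *Nupr1*, a stress-induced chromatin protein (1.20, adjusted p = 0.026), and the seryl-tRNA synthetase *Sars* (0.49, adjusted p = 0.025), and neither was called without any 1 of Cre mice 1, 3 and 4 and liver-*Flcn*-/- mouse 3 (adjusted p = 0.0539 to 0.0723 and 0.0538 to 0.0682), nor *Nupr1* without Cre mouse 5.

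Of 21 acute phase proteins 3 were higher (14.3%, against 8.06% of all tested genes) and 6 lower (28.6%, against 8.53%). *Crp*, C-reactive protein, had 131, 62.7, 176, 116 and 113 CPM in Cre mice and 302 to 493 (median 439) in liver-*Flcn*-/- mice, all above the Cre range (log2 fold change 1.80, adjusted p = 8.8e-07). *Orm2*, an orosomucoid, had 174, 177, 130.5, 154 and 49.5 and 16.0 to 67.3 (median 24.0) CPM (log2 fold change −1.99, adjusted p = 0.0091), with Cre mouse 5 inside the liver-*Flcn*-/- range. On chow neither passed (0.11 and −0.06, adjusted p = 0.76 and 0.97).

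Of 18 pericentral genes 7 were lower (38.9%, against 8.53% of all tested genes), with a median of −0.434, and of 14 periportal genes 3 were higher (21.4%, against 8.06%) and 1 was lower, with a median of 0.313. Without Cre mouse 3 the pericentral median was −0.390, with 7 lower, and the periportal median 0.456, with 5 higher. The number of higher zonation genes ranged from 1 to 5 when any 1 library was left out. *Gulo*, the last enzyme of vitamin C synthesis, had 582, 451, 557, 579.6 and 533 CPM in Cre mice and 231 to 277 (median 261) in liver-*Flcn*-/- mice, without overlap (log2 fold change −1.06, adjusted p = 5.8e-07). *Lgr5*, the R-spondin receptor of pericentral hepatocytes, was lower (−1.30, adjusted p = 0.001), as was *Slc1a4*, an amino acid transporter of the pericentral list (−2.16, adjusted p = 0.00025). Of 98 genes of drug metabolism 21 were lower (21.4%, against 8.53%) and 5 higher (5.10%, against 8.06%), among them *Cyp2a5*, a P450 enzyme (−1.45, adjusted p = 0.0071), and the sulfotransferase *Sult1c2* (2.40, adjusted p = 1.3e-07). Members of the Cyp, Gst and Ugt families share sequence, and their counts may share reads. Of the 59 genes that handle methionine, choline and one-carbon units, which this diet withholds or strains, 6 were higher (10.2%, against 8.06%) and 9 were lower (15.3%, against 8.53%), or 5 lower without Cre mouse 1 and 3 higher without any 1 of Cre mice 1 and 2 and liver-*Flcn*-/- mouse 6. *Gnmt*, which uses up S-adenosylmethionine, had 722, 566, 956, 785 and 647 CPM in Cre mice and 316 to 513 (median 407) in liver-*Flcn*-/- mice, without overlap (log2 fold change −0.82, adjusted p = 0.00073). *Nnmt*, which methylates nicotinamide with the same donor, was lower (−1.33, adjusted p = 0.0019).

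Genes of the cell cycle had lower levels on average but spread widely between mice. Of 108 tested 19 were lower (17.6%, against 8.53% of all tested genes) and 2 higher (1.85%, against 8.06%), with a median of −0.906, and all 61 mitotic genes had a negative log2 fold change, of which 9 were called. These counts rested on single mice: 69 were lower without liver-*Flcn*-/- mouse 4, 41 without Cre mouse 3, and 7 to 11 without any 1 of Cre mice 1 and 4 and liver-*Flcn*-/- mice 3, 5 and 6. *Mki67*, the marker of cycling cells, had 35.1, 6.81, 6.75, 39.1 and 11.9 CPM in Cre mice and 1.76 to 17.7 (median 4.55) in liver-*Flcn*-/- mice, and the highest of the latter was mouse 4 (log2 fold change −1.65, adjusted p = 0.04, and 0.0573 to 0.15 without any 1 of Cre mice 1 and 4 and liver-*Flcn*-/- mice 1, 2, 3, 5 and 6). *Uhrf1*, which maintains DNA methylation at replication, was lower (−1.70, adjusted p = 0.0031). *E2f8*, an atypical E2F repressor linked to hepatocyte polyploidy, was higher, from 3.09 to 7.37 CPM in Cre mice to 12.9 to 24.3 in liver-*Flcn*-/- mice (1.56, adjusted p = 0.0017).

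The genotype difference on MCD was compared with that on chow, which rests on other mice. On chow liver-*Flcn*-/- mice had 776 genes higher and 436 lower. Of the 1134 genes higher on MCD 286 were also called higher on chow and 14 lower, and of the 1199 lower on MCD 81 were also lower on chow and 46 higher. The interaction passed for 463 genes upward and 779 downward, including 323 of the genes higher on MCD and 447 of those lower on it. Among the lists, the lysosome held its direction on both diets (median 0.419 on MCD and 0.300 on chow), as did cholesterol synthesis (−0.544 and −0.342), of which edgeR called 0 of 25 on chow, limma-voom 1 and DESeq2 4, with 10 at an unadjusted p under 0.05. Matrix (−0.580 and 0.374), recruited macrophages (−0.793 and 0.842), interferon-stimulated genes (−0.488 and 0.408), innate sensing (−0.555 and 0.288) and the respiratory chain (0.345 and −0.101) had medians of opposite sign on the 2 diets. For *Trem2*, the log2 fold change was −1.16 on MCD and 1.65 on chow (adjusted p = 0.011), with an interaction of −2.81 (adjusted p = 0.0021). For *Col1a1* it was −1.76 on MCD and 1.23 on chow (adjusted p = 0.058), with an interaction of −2.99 (adjusted p = 0.0027). For *Ccl5* it was 1.50 on chow (adjusted p = 0.002) and the interaction was −2.10 (adjusted p = 0.0033).

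**Figure D5:**
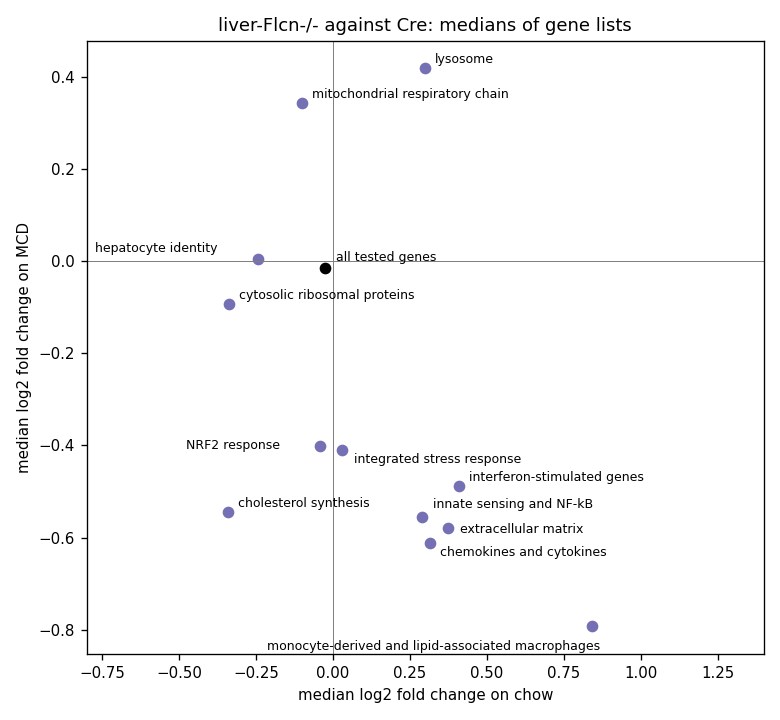
Median log2 fold change of liver-*Flcn*-/- against Cre mice for each gene list, on chow (horizontal) and on MCD (vertical), with lines at 0. Lysosome lies in the upper right at 0.300 and 0.419, the respiratory chain in the upper left at −0.101 and 0.345, and matrix and recruited macrophages in the lower right.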

How the data were processed

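Liver mRNA of 22 mice was sequenced, 1 library per mouse (KAPA mRNA kit), and the 11 libraries on MCD are compared here. Per the submitters' processing notes the authors used bcl2fastq, Trimmomatic, STAR and HTSeq on GRCm38 (versions not given), and they deposited raw counts of reads per gene, whole numbers without normalization. The annotation release and the strand setting are not given in the sources used here, so overlapping and antisense genes cannot be told apart, and a step that collapses reads on the molecular identifiers of the adapters is not stated, so errors from counting alone understate the noise. Libraries on MCD held 16616132 to 21144388 counts, and 0 columns lacked a sample.

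Genes whose mean count reached 10 were fitted with edgeR 4.0.16 (TMM, quasi-likelihood, 4 groups in 1 fit; R 4.3.3), where the study used limma. Alternatives were limma-voom (limma 3.58.1), DESeq2 1.42.0, RLE factors, other filters, only the MCD libraries, a replicate block, a muscle or sex covariate and leaving out each library. 1 more, leaving out the 5 chow libraries under 75% uniquely mapped reads, was chosen after seeing the data. The *Flcn* test used scipy 1.17.1 in Python 3.11.15 on log2 (CPM + 1). The scripts were tested on simulated data. Gene positions are from GENCODE M21, promoter windows from RefSeq.

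The comparison and the 43 gene lists were chosen with earlier results of these data known, and a list is described by its counts and median, with no test of its own. Genes are named by rule: the FLCN axis and the genes the study names for these livers; the 10 with the largest change each way with an adjusted p under 0.05, a mean of at least 1 CPM, no overlap and a call that holds without Cre mouse 3; up to 4 called members per role of a list, and the defining markers of a cell type; and muscle genes. Symbols of the form Gm plus digits or ending in Rik were left out of the 10 each way. A further 11 genes were named after their values were seen, as the few members called against the direction of their list. Pathology, protein and RT-qPCR measurements were not analysed here, and some genes that the rule names are not reported here.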

Additional observations from a re-analysis of the deposited data

Results flagged for a closer look

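For the 130 named genes, each group on MCD was searched for a mouse whose gap to its nearest neighbour took up more of the group's range than Dixon's 95% limit, which chance passes in about 1 of 20 groups. It was passed in 36 of 260 groups (13.8%). Cre mouse 3 stood apart from the other Cre mice for 16 genes. It was the highest for the muscle genes *Myh4* (119 CPM), *Acta1* (599), *Ckm* (251), *Mylpf* (174), *Tpm1* (317), *Cox6a2* (28.8), *Cox8b* (11.1), *Rpl3l* (12.5) and *Des* (146), and also for *Fnip2* (39.2), *Rian* (18.6), *Meg3* (63.4), *Ppargc1a* (31.3), *Acta2* (15.8) and *Ighm* (72.4), and the lowest for *E2f8* (3.09). Liver-*Flcn*-/- mouse 3 was the highest of its group for the muscle genes *Myh4* (0.0541 CPM), *Acta1* (13.8), *Ckm* (5.68), *Mylpf* (5.35), *Cox8b* (0.649), *Rpl3l* (0.270) and *Des* (8.76), and for *Nupr1* (290.0). Liver-*Flcn*-/- mouse 4 was the highest for the proliferation genes *Mki67* (17.7) and *Uhrf1* (3.34) and for *Acta2* (3.68). The remaining values apart were those of Cre mouse 5 for *Akr1c18* (56.9), *Cyp2d41-ps* (9.07) and *Anxa4* (84.8), of Cre mouse 2 for *Nupr1* (204) and, as the lowest, *Ccr1* (1.77), of Cre mouse 4 for *Cxcl1* (13, the lowest), of liver-*Flcn*-/- mouse 6 for *Akr1c18* (2.58) and *Peg3* (82.9), and of liver-*Flcn*-/- mouse 5 for *Hexa* (159, the lowest).

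The genotype difference on MCD differed from that on chow for 53 of the 130 genes, by the interaction term in edgeR at an adjusted p under 0.05. The values that follow are the log2 difference on MCD minus that on chow. It was positive for metabolic genes, namely *Sdhd* (0.69), *Atp5a1* (0.50), *Acacb* (1.59), *Pklr* (1.49), *Hsd17b13* (0.87), *Sult1c2* (1.22), *Cyp46a1* (1.80) and *Sod2* (0.46), and for *Clec2h* (3.44), *Crp* (1.70), *Peg3* (1.82), *Pcolce2* (1.01), *Col18a1* (0.54) and *Slc40a1* (0.80). It was negative for the matrix and contractile genes *Col1a1* (−2.99), *Col3a1* (−2.25), *Col4a3* (−2.81), *Ltbp2* (−2.52), *Timp1* (−3.43), *Mmp2* (−1.62), *Tagln* (−1.98) and *Tpm1* (−1.25). It was negative for the macrophage and inflammatory genes *Gpnmb* (−2.95), *Trem2* (−2.81), *Mmp12* (−3.71), *Cd63* (−2.17), *Cd68* (−1.24), *Ctss* (−1.09), *Cxcl10* (−2.03), *Ccl2* (−2.13), *Ccl5* (−2.10), *Oasl1* (−1.96), *Usp18* (−1.08), *Stab1* (−0.66), *Trdc* (−4.15) and *Ighm* (−4.18). The same sign was found for the hepatocyte, lipid and stress genes *Krt8* (−1.36), *Krt18* (−0.98), *Atf3* (−1.98), *Nupr1* (−2.15), *Aldh1l2* (−1.83), *Slc1a4* (−2.22), *Gulo* (−0.95), *Plin4* (−2.46) and *Cyp2d41-ps* (−1.86), for the proliferation genes *Mki67* (−2.61) and *Uhrf1* (−3.16), and for *Akr1c18* (−5.05), *Sprr1a* (−7.09), *Bcl2l14* (−3.11), *Rian* (−4.45), *Meg3* (−3.67) and *Cox8b* (−8.11). Of these, *Cox8b*, *Ighm*, *Meg3*, *Rian*, *Tpm1*, *Gpnmb*, *Col1a1*, *Col3a1*, *Ltbp2*, *Tagln*, *Mmp2*, *Mmp12* and *Ctss* had their highest value on MCD in Cre mouse 3. With the 5 chow libraries of lower uniquely mapped share left out, the interactions of *Gpnmb*, *Cd63*, *Cd68*, *Ctss* and *Tpm1* no longer passed downward. Whether those of the other genes named here held in that fit is not reported here. By list, the downward interactions fell from 26 to 6 for cell cycle, 18 to 9 for innate sensing and 11 to 7 for recruited macrophage genes. In some other lists they rose, as from 3 to 6 for the NRF2 response.

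Outside the comparisons of the report, in the counts of Y-chromosome genes and *Xist* that served for the sex covariate, libraries Cre MCD 1 and FLCN KO MCD 3 held 675 and 224 counts on Y-chromosome genes beside *Xist*, above the 0 to 38 counts of the other MCD libraries with *Xist*. Their part in the results was not tested beyond leaving each out.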

How the results depend on the processing

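Over the 20 alternatives of the comparison on MCD the number of genes higher was 1008 to 1229 and of genes lower 878 to 1360 in the alternatives that keep all mice and use no replicate block. Leaving out 1 mouse at a time gave 886 to 1191 higher and 848 to 1241 lower genes. Whether the replicate numbers pair the mice cannot be decided from expression alone. The correlation of same-numbered mice was 0.144, 0.0621, 0.262, 0.0847 and 0.0902 (mean 0.129). A mouse correlated best with its own number for 1 of 5 Cre and 2 of 5 liver-*Flcn*-/- mice. With the replicate block, fitted without liver-*Flcn*-/- mouse 6, 619 genes were higher and 584 lower on MCD, 247 were lower on chow, and the interaction passed for 199 upward and 353 downward. With the block 12 respiratory chain genes were higher, and 22 matrix, 4 recruited macrophage, 7 chemokine, 9 innate sensing and 5 interferon-stimulated genes were lower. With the muscle covariate 17 matrix and 17 integrated stress response genes were lower, and the fold changes turned positive for *Cox8b* (0.78), *Ighm* (0.29), *Acta1* (0.20), *Ckm* (0.093) and *Mylpf* (0.11). The covariate is the mean level of the muscle list, which holds *Acta1*, *Ckm* and *Mylpf*. For these genes the loss of the difference follows from how the covariate is built. Without the 5 chow libraries of lower uniquely mapped share 375 genes were higher and 119 lower on chow, and the interaction passed for 470 downward. Leaving out 1 library at a time gave 500 to 806 genes higher and 170 to 426 lower on chow, 273 to 581 upward and 533 to 883 downward in the interaction, 23 to 41 lower matrix, 6 to 13 lower cholesterol synthesis and 8 to 17 lower integrated stress response genes. Of 121 named genes called on MCD 119 kept their call in DESeq2, 109 in limma-voom and 96 with the block. It was kept by 94 with the muscle covariate and by 106 without Cre mouse 3. The 10 genes of largest change each way were named only if they kept it without that mouse. None changed sign except the 5 that turned positive with the muscle covariate. Of the motif alternatives, CACGTG was found in 7.15% and GTCACGTG in 2.25% of all windows. The causes of these changes were not tested beyond what each alternative leaves out. Depth limits genes near the minimum mean count of 10, which rest on few reads in each library.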

Other observations

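Of 15 tested fetal and imprinted genes 2 were higher (13.3%, against 8.06% of all tested genes) and 3 lower (against 8.53%) on MCD, with a median of −0.053, or −0.312 without Cre mouse 3. *Peg3*, an imprinted zinc finger gene expressed from the paternal allele, had 7.37, 7.41, 9.14, 7.13 and 12.0 CPM in Cre mice and 26.2 to 82.9 (median 37.4) in liver-*Flcn*-/- mice, without overlap (log2 fold change 2.33, edgeR adjusted p = 0.00018). *Igf2bp3*, an RNA-binding protein of fetal tissues, had 0.412, 0.388, 0.0469, 0.194 and 0.154 and 0.973 to 10.7 (median 3.49) CPM, also without overlap, and the Cre libraries held 1 to 10 counts of it (edgeR adjusted p = 0.00039). *Igf2bp3* was higher on chow as well (4.03, adjusted p = 0.011), while *Peg3* did not pass there (0.51, adjusted p = 0.43).

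Of 31 genes of the growth hormone axis and urinary proteins 5 were higher (16.1%, against 8.06% of all tested genes), with a median of 0.002, or 0.469 without Cre mouse 3. Of 38 genes of glucose and glycogen metabolism 6 were higher (15.8%, against 8.06%) and 8 lower (21.1%, against 8.53%), but 8 higher and 6 lower without Cre mouse 3. Of 21 circadian clock genes 1 was lower (4.76%, against 8.53%), with 1 higher without Cre mouse 3 and 2 lower without liver-*Flcn*-/- mouse 1. Of 26 p53 targets 1 was higher and 1 lower (3.85% each, under the shares of all tested genes), with 0 to 3 lower when any 1 library was left out.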
